A study of Mus musculus with 6 samples.

Results

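The genes described here are 34 genes of the kinetochore, the centromere and the spindle checkpoint, chosen by name and function. All 34 had a probe set on the array with their symbol as its only annotation, out of 11942 genes so represented. Each gene was read from its brightest probe set, by the mean over all 6 arrays. The series compared C2C12 cells, an established mouse muscle line, at 2 stages: myoblasts, the dividing cells, and myotubes, the multinucleated fibres they form by fusion. There were 3 arrays of each stage. The labels give total RNA labelled with biotin, no genotype, medium, treatment or time in differentiation, and no statement that arrays of a stage came from separate cultures. The p-values therefore reflect no more than the differences among these 6 arrays, some of which may be technical. The labels name the mouse as the organism, while HG-U133A arrays carry probes designed for human transcripts. Which species the RNA came from could not be settled, and genes go by the human names of their probe sets. The title of myoblast array 3 names no stage, and its group was taken from its description.

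The kinetochore is the protein assembly on the centromere that attaches a chromosome to spindle microtubules. Its foundation is chromatin carrying CENP-A, a centromere-specific form of histone H3. On it sits an inner layer, the constitutive centromere-associated network, and then an outer layer that binds microtubules, the KNL1, Mis12 and Ndc80 complexes. The spindle checkpoint proteins sit on unattached kinetochores and hold back the anaphase-promoting complex (APC/C), the ubiquitin ligase that triggers the loss of cyclin B and securin. Many of these genes are transcribed mainly in late S, G2 and M phase. Myoblasts leave the cell cycle before they fuse, and myotube nuclei do not normally divide.

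Many genes of this kind carry a cell cycle genes homology region (CHR) and CCAAT boxes in their promoters. The CHR is a short element bound by the DREAM complex, a repressor of cell cycle genes in resting cells, and CCAAT boxes are bound by NF-Y. Mouse promoters from RefSeq (build GRCm38.p6), from 250 bases before to 50 after the start site, matched 31 of the 34 genes by symbol, with 33 promoters in all. BUB3 and MAD1L1 count more than once among these, and CENPC, AURKB and INCENP were not matched. Both strands were searched for the CHR as TTTGAA or TTCGAA and for the CCAAT box as CCAAT. Of the 33 promoters 57.6% held a CHR, against 19.2% of all 32851 promoters in the table. A CCAAT box was in 66.7% of them, against 37.4% of all, and both were in 48.5%, against 7.52% of all. Such a match says only that the letters are there. The 6 promoters below run from 150 bases before to 30 after the start site, 5′ to 3′ on the gene's strand. They are examples: 3 genes with both elements that were lower in myotubes, 1 lower with CCAAT boxes alone and 1 lower with neither. The last, Cenpb, was not called and has neither. Genes that were not called but held both elements, 6 in all, are not printed. Capitals mark CHR and CCAAT letters on either strand (ATTGG is a CCAAT box on the other strand). In Cdca8 the last capitals are a CHR whose final base is also the first of an ATTGG.
Bub1, chr2:127831830-127832009, minus strand: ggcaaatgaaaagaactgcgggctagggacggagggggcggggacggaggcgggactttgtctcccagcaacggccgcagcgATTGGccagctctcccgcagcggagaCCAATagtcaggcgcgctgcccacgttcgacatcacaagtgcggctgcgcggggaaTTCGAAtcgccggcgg
Cenpf, chr1:189688057-189688236, minus strand: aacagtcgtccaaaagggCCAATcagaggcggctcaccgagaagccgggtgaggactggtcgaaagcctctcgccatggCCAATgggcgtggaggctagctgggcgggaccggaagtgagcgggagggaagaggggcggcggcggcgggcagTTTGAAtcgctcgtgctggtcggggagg
Cdca8, chr4:124936888-124937067, minus strand: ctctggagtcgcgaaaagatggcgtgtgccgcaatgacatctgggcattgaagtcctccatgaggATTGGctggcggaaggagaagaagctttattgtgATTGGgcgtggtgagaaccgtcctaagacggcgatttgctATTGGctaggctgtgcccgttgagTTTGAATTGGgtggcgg
Zwint, chr10:72654696-72654875, plus strand: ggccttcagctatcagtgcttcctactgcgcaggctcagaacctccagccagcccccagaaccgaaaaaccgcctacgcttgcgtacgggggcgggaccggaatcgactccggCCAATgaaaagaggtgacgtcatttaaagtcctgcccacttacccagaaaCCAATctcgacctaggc
Mad2l1, chr6:66535071-66535250, plus strand: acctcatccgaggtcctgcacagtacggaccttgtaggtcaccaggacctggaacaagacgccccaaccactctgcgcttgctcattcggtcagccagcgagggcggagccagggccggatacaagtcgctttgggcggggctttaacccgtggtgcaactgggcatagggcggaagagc
Cenpb, chr2:131180038-131180217, minus strand: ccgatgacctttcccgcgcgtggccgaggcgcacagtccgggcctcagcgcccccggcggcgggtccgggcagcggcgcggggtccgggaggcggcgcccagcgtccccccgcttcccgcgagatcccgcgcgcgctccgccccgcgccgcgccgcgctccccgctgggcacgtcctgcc

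Counted from the start site, with its first base as 1 and the base before it as -1, the CHR of Bub1 began at 15, that of Cenpf at 3 and that of Cdca8 at 14. The CCAAT boxes of Bub1 began at -68 and -42, those of Cenpf at -132 and -71, and those of Zwint at -37 and 14. Among the 14 genes called lower in myotubes that had a promoter, 9 held both elements and 2, MAD2L1 and PTTG1, held neither. Among the other 17 genes with a promoter, 6 held both and 5 held neither. The difference between these shares was not tested.

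Several facts of the arrays bear on every value below. Background was taken on each array as the highest signal of 27 unspiked bacterial control probe sets, which lay between 251.5 and 1040.2. For arrays 1, 2 and 3 in turn, this level was 919.9, 326.5 and 251.5 in myoblasts, against 731.4, 1040.2 and 520.1 in myotubes. Every myotube signal was thus held to a higher level than signals of myoblast arrays 2 and 3. The median signal over all probe sets was 664.8, 517.9 and 541.8 on the myoblast arrays and 747, 789.2 and 641 on the myotube arrays. On myoblast array 1 and myotube array 2 the background level thus lay above the median, and on myotube array 1 close to it. A signal at background is therefore common on these arrays. Spike-in controls had geometric means of 3539.1 and 4274.8 for myoblast arrays 2 and 3, and 12320.2 to 71438.8 for the rest. Myoblast arrays 2 and 3 correlated at r = 0.988 over probe sets on the log2 scale, and the other pairs within a stage at 0.889 to 0.912. Myotube array 3 correlated with myoblast arrays 2 and 3 at 0.92 and 0.924, above its 0.902 and 0.908 with the other myotube arrays. By the run records, the myotube arrays shared a scan day and a chip lot, and the myoblast arrays were scanned on another day and came from other lots, so scan day and lot cannot be told apart from stage. The numbers in the records differed from the titles for all 3 myoblast arrays, and the titles were used. Consecutive laboratory codes in the records, a grouping the records do not name, put myoblast array 1 in a series with the 3 myotube arrays and myoblast arrays 2 and 3 in a second. A fit with this code series as a block therefore compares myoblast array 1 with the 3 myotube arrays. Its error takes in the small spread between myoblast arrays 2 and 3, and its p-values may be too small if those are repeats of one sample.

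Most of the kinetochore and checkpoint genes that could be tested were lower in myotubes than in myoblasts, and none was called higher. Genes were tested if their mean signal over both stages reached 474.1, so a gene bright in myoblasts alone could pass. BUB1 did so, with means of 1596 in myoblasts and 194.5 in myotubes. Of the 34 genes, 25 were bright enough to be tested. Limma called 15 of the 25 lower at an adjusted p under 0.05 over all genes. The background of that call was 7.12% of the 8149 genes tested (580 genes). None of the 25 was called higher, where 5.89% of all genes were, and none was higher at an unadjusted p under 0.05, while 16 were lower at it. Over all genes tested, 15.5% were lower and 16.7% higher at that unadjusted threshold. The median log2 change, myotube minus myoblast, was -1.14 over the 25 genes and 0.12 over all genes tested. The 15 called genes were MAD2L1, CDCA8, CENPF, BUB1B, CENPN, BUB1, CENPE, HJURP, ZWINT, TTK, CENPU, AURKB, PTTG1, CENPA and BUB3 in the order of their fitted changes. That order is not a ranking of true sizes, since most of these genes reached background in myotubes. Fold changes here are on the scale of log2(signal + 197), which understates the change of dim genes.

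**Figure D1:**
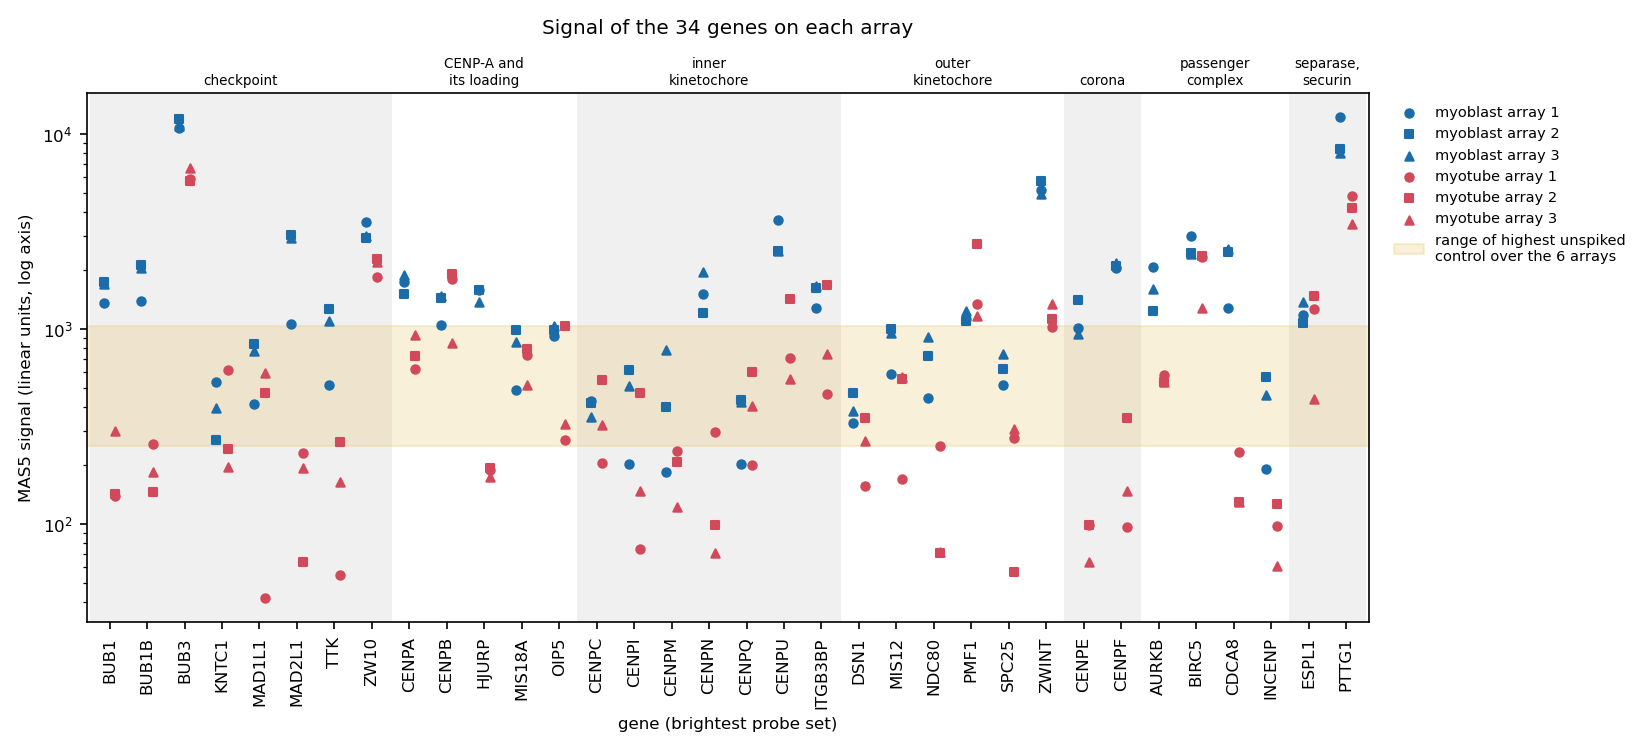
MAS5 signal (linear units, log axis) of the 34 genes on each of the 6 arrays, grouped by role, with myoblast arrays in blue and myotube arrays in red; the shaded band is the range of the highest unspiked control over the arrays, 251.5 to 1040.2. BUB3 and PTTG1 stand well above the band in both stages with all myotube points below all myoblast points, ZWINT drops to its upper edge, while BUB1, BUB1B, HJURP, CDCA8 and CENPF drop from above the band to within or below it.

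Because dim genes were left out, the test was also made with no filter. Then 15 of the 34 genes were called lower, where 4.31% of all 11942 genes were, and their median log2 change was -0.92 against 0.19 for all genes. CENPA was no longer called (adjusted p = 0.0506) and NDC80 was (log2 change -1.45 ± 0.39, SE, adjusted p = 0.0492). All myotube signals lay below all myoblast signals in 18 of the 25 tested genes, where 16.3% of the genes tested did so, and in 21 of the 34, where 12.1% of all genes did. In all 9 genes below the filter, every myotube signal and 1 or more myoblast signals were at or below background. In 9 of the 15 called genes every myotube signal was at or below its array's background level, in 3 more (CENPA, AURKB and CENPU) 1 or 2 signals were, and in 14 of the 15 every myoblast signal was above it. The share of all genes in these states was not counted, so these counts mark limits of measurement only. For 8 of those 9 called genes, TTK left out because 1 of its myoblast signals was also below background, a lower limit is given beside the fitted change. This limit, written as "at least", sets the myoblast mean against the higher of the background level and the gene's own signal on each myotube array, on the log2 scale. With these 8 genes at their limit the median over the 25 was -1.01. The arrays measure RNA in bulk, so fewer cells with a transcript and less of it per cell cannot be told apart.

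**Figure D2:**
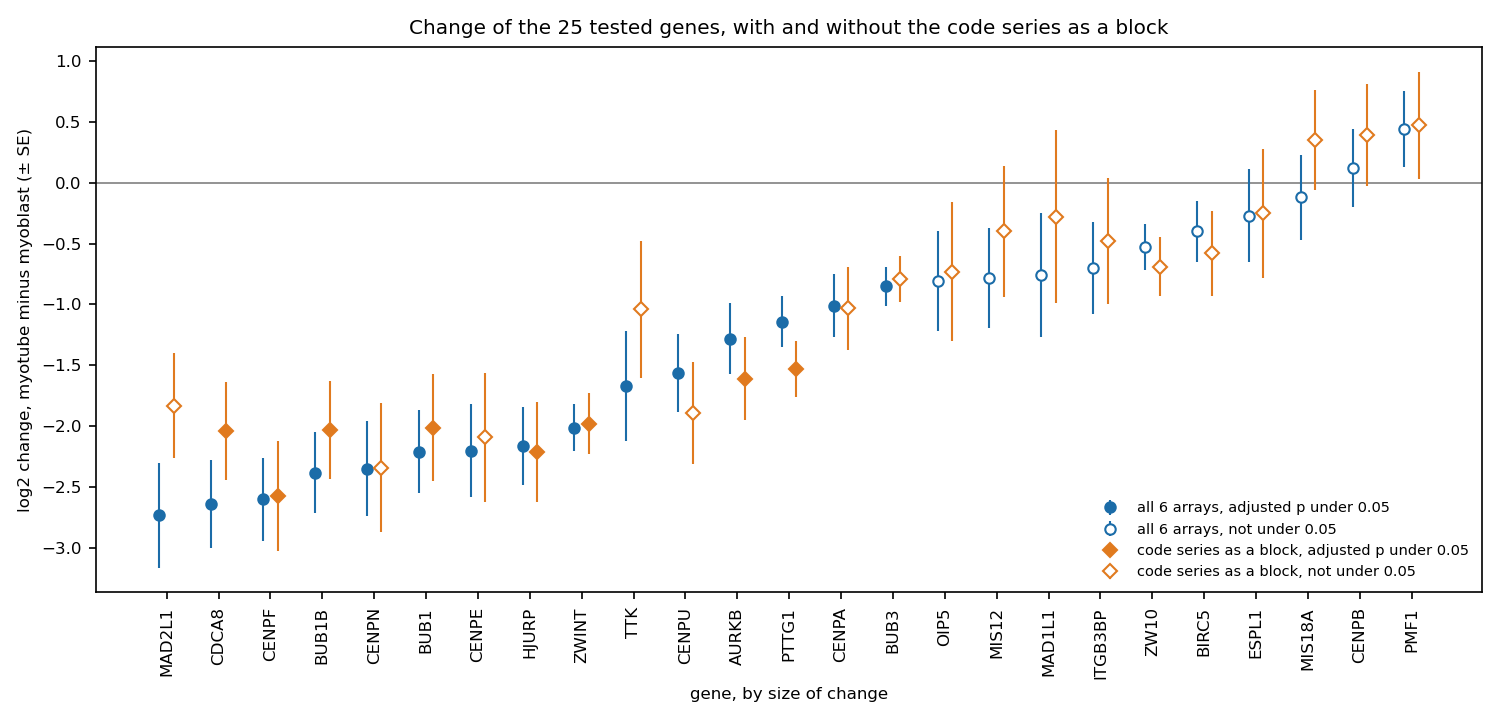
Log2 change (myotube minus myoblast, ± SE) of the 25 tested genes, ordered by size, from the fit to all 6 arrays (blue circles) and from the fit with the laboratory code series as a block (orange diamonds); filled symbols are adjusted p under 0.05. All 15 called genes stay below 0 in both fits, 8 of them filled in both, and TTK and MAD2L1 move furthest towards 0 with the block.

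The spindle checkpoint genes gave 5 calls among 7 tested. BUB1, a kinase that marks centromeric chromatin and brings other checkpoint proteins to the kinetochore, had myoblast signals of 1357, 1732 and 1698 and myotube signals of 139, 143 and 301, in the order of array 1, array 2 and array 3 that is kept for all genes below. The groups were far apart, and all 3 myotube signals were at background. The log2 change was -2.21 ± 0.34 (adjusted p = 0.0037), at least 2.16-fold lower. BUB1B, whose product BubR1 is part of the complex that inhibits the APC/C, gave 1391, 2139 and 2054 in myoblasts and 257, 145 and 184 in myotubes. Myoblast array 1 was the lowest of its group, yet far above every myotube signal. Limma gave a log2 change of -2.38 ± 0.33 (adjusted p = 0.00226), at least 2.49-fold lower.

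MAD2L1 encodes Mad2, the protein that binds and blocks CDC20. It gave 1057, 3039 and 2922 in myoblasts and 230, 63.6 and 194 in myotubes. The groups did not overlap, but myoblast array 1 lay well under the other myoblast arrays. The log2 change of -2.73 ± 0.43 (adjusted p = 0.00421) was at least 2.87-fold lower. With the code series as a block it was -1.83 and no longer called (adjusted p = 0.0641, within a range of 0.000978 to 0.432 over 20 alternatives). TTK, the Mps1 kinase that starts checkpoint signalling, gave 514, 1266 and 1098 in myoblasts and 54.7, 262 and 165 in myotubes. Here myoblast array 1 was below its own background level. In the fit the log2 change was -1.67 ± 0.45 (adjusted p = 0.035), of uncertain size, and this call was the least stable of the checkpoint genes. It was lost without myoblast array 2 or 3 or any 1 myotube array (adjusted p = 0.213, 0.19, 0.0932, 0.0628 and 0.0524), and with the block the change was -1.04 (adjusted p = 0.386, within 0.0146 to 0.79 over 19 alternatives).

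BUB3, the partner that carries BUB1 and BubR1 to the kinetochore, had signals far above background in both stages, from a probe set of the _x_at kind, which may also bind other transcripts. They were 10713, 11899 and 10947 in myoblasts and 5913, 5720 and 6700 in myotubes, so the probe set still gave a signal above background on all 3 myotube arrays. The fitted log2 change was -0.85 ± 0.16, a 1.81-fold fall (adjusted p = 0.00802). It was not called with the block (-0.79, adjusted p = 0.0684, within 0.00523 to 0.216 over 20 alternatives). ZW10, which brings dynein to the kinetochore, gave 3520, 2918 and 2989 in myoblasts and 1848, 2286 and 2211 in myotubes. Its groups did not overlap either, but the log2 change of -0.53 ± 0.19 did not pass (adjusted p = 0.0913). MAD1L1, the Mad1 anchor of Mad2, gave 411, 842 and 774 against 41.5, 468 and 593, which overlap (log2 change -0.76 ± 0.51, adjusted p = 0.321). At or below background were 2 of its myotube signals and 1 of its myoblast signals. KNTC1, the ROD partner of ZW10, was too dim to test, with signals of 271 to 535 in myoblasts and 196 to 613 in myotubes.

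For CENP-A and the proteins that load it, 2 of 5 genes were called. HJURP, the chaperone that deposits CENP-A, gave 1577, 1580 and 1373 in myoblasts and 188, 193 and 175 in myotubes. Both groups were tight, and every myotube signal was at background. The log2 change was -2.16 ± 0.32 (adjusted p = 0.00314), at least 2.05-fold lower. CENPA itself, also from an _x_at probe set, gave 1742, 1514 and 1903 against 620, 730 and 927. The groups did not overlap, but myotube arrays 1 and 2 were at or below background, so the size of the fall is uncertain. The log2 change was -1.01 ± 0.26 (adjusted p = 0.0324). That call was lost without myoblast array 2 or 3 or myotube array 1 or 2 (adjusted p = 0.123, 0.2, 0.0829 and 0.0845) and with the block (-1.03, adjusted p = 0.15, within 0.0228 to 0.499 over 20 alternatives).

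OIP5 and MIS18A, subunits of the Mis18 complex that prepares centromeres for new CENP-A, were not called. OIP5 gave 918, 991 and 1037 in myoblasts and 270, 1034 and 327 in myotubes (log2 change -0.81 ± 0.41, adjusted p = 0.198). The signal of myotube array 2 was as high as those of the myoblast arrays, and the other 2 were far lower. All 3 myotube signals and that of myoblast array 1 were at or below background, so retained expression cannot be read from them. MIS18A gave 486, 991 and 853 against 737, 793 and 514, which overlap throughout (-0.12 ± 0.35, adjusted p = 0.816). At or below background were 2 of its myotube signals and 1 of its myoblast signals. CENPB, which binds a short motif in centromeric repeat DNA, gave 1053, 1444 and 1474 against 1805, 1909 and 848. Its log2 change was 0.12 ± 0.32 (adjusted p = 0.802), and the sign of MIS18A and of CENPB turned when single arrays were left out.

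In the inner kinetochore 2 of 3 tested genes were called, and 4 of the 7 listed were too dim to test. CENPN, which recognises the CENP-A nucleosome, gave 1514, 1211 and 1955 in myoblasts and 296, 98.3 and 70.9 in myotubes. The groups were far apart and the myotube signals were at background. Limma gave a log2 change of -2.35 ± 0.39 (adjusted p = 0.00471), at least 2.08-fold lower, with -2.34 and an adjusted p of 0.0549 with the block (within 0.00232 to 0.255 over 19 alternatives). CENPU, which recruits the kinase PLK1 to kinetochores, gave 3632, 2516 and 2511 against 706, 1422 and 555. Myoblast array 1 was the highest of its group here, in contrast to MAD2L1 and TTK. In the fit the log2 change was -1.56 ± 0.32 (adjusted p = 0.0117), with the signal of myotube array 1 at background. The call was lost without myotube array 1 (adjusted p = 0.053) and with the block (-1.89, adjusted p = 0.0501, within 0.00404 to 0.115 over 20 alternatives).

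ITGB3BP, which encodes CENP-R, gave 1277, 1631 and 1668 in myoblasts and 466, 1683 and 741 in myotubes. As for OIP5, myotube array 2 was as high as the myoblast arrays (log2 change -0.70 ± 0.38, adjusted p = 0.221). CENPC, the scaffold between CENP-A chromatin and the outer kinetochore, was dim, with 428, 419 and 355 against 206, 545 and 321. The other dim genes of this layer were CENPI, with 202 to 617 in myoblasts and 74.8 to 468 in myotubes, CENPM, with 185 to 781 and 122 to 236, and CENPQ, with 204 to 432 and 200 to 605. Their groups overlap.

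Of the outer kinetochore genes only ZWINT was called, of 3 tested and 6 listed. ZWINT, which links KNL1 to the ROD, ZW10 and Zwilch complex, gave 5156, 5736 and 4928 in myoblasts and 1028, 1122 and 1346 in myotubes. The means were 5273 ± 417 and 1166 ± 163 (SD, n = 3), all of the myotube signals were above background, and the spread within each stage was small beside the difference. The fitted log2 change was -2.01 ± 0.19, or 4.03-fold lower, with the smallest adjusted p of the 25 genes (0.000338). It was called under all 20 alternatives, with adjusted p from 0.000116 to 0.0261, the block included (-1.98, adjusted p = 0.00599).

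MIS12, a core subunit of the complex of that name, gave 588, 1000 and 956 against 171, 556 and 567. Every myotube signal was under every myoblast signal, but myoblast array 1 was close to the 2 higher myotube arrays (log2 change -0.78 ± 0.41, adjusted p = 0.21). At or below background were 2 of its myotube signals and 1 of its myoblast signals. PMF1, its partner in the same complex, gave 1127, 1105 and 1239 against 1343, 2740 and 1163 (0.44 ± 0.31, adjusted p = 0.348). The change was 0.10 without myotube array 2, which stood above the other 5 arrays. NDC80, the microtubule-binding subunit, was below the filter, with 444, 724 and 914 in myoblasts and 252, 71.3 and 72 in myotubes. Its groups did not overlap, and it is the gene that was called when no filter was used. SPC25, of the same complex, gave 516, 622 and 747 against 276, 56.7 and 308, also without overlap, with a log2 change of -1.06 ± 0.40 and no call in the fit without filter (adjusted p = 0.13). For both NDC80 and SPC25, all 3 myotube signals and 1 myoblast signal were at or below background, so the size of a fall is uncertain. DSN1, of the Mis12 complex, gave 329 to 472 in myoblasts and 157 to 351 in myotubes, which overlap.

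Both genes of the fibrous corona, the outermost layer of an unattached kinetochore, were called. CENPF, a large protein of the corona and nuclear matrix, gave 2054, 2107 and 2186 in myoblasts and 96.1, 348 and 147 in myotubes. The 3 myoblast signals lay close together and the myotube signals at background. The log2 change was -2.60 ± 0.34 (adjusted p = 0.00169), at least 2.88-fold lower, and -2.57 with the block (adjusted p = 0.0215, within 0.000646 to 0.147 over 20 alternatives). CENPE, a kinesin that moves chromosomes to the spindle equator, gave 1010, 1410 and 945 against 99, 98.2 and 63.7. The groups were far apart, although myoblast array 1 was only just above its own background level. Limma gave a log2 change of -2.20 ± 0.38 (adjusted p = 0.00615), at least 1.5-fold lower. The call was lost without myoblast array 2 (adjusted p = 0.0681) and with the block (-2.09, adjusted p = 0.0748, within 0.00302 to 0.396 over 19 alternatives).

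The chromosomal passenger complex corrects wrong attachments through the kinase AURKB, and 2 of its 3 tested subunits were called. AURKB gave 2076, 1244 and 1607 in myoblasts and 579, 532 and 537 in myotubes. The 3 myotube signals were nearly equal and under all myoblast signals, and 2 of them were at or below background, so the size of the fall is uncertain. In the fit the log2 change was -1.28 ± 0.29 (adjusted p = 0.0192), and with the block -1.61 (adjusted p = 0.0422, within 0.0118 to 0.233 over 20 alternatives). The call was lost without myoblast array 2 or 3 or myotube array 2 (adjusted p = 0.0584, 0.111 and 0.0613). CDCA8, which encodes borealin, gave 1280, 2491 and 2587 against 234, 130 and 130. Again myoblast array 1 was low but well clear of the myotube arrays. The fitted log2 change was -2.64 ± 0.36 (adjusted p = 0.00222), at least 2.75-fold lower. INCENP, the scaffold of the complex, was dim, with 192, 565 and 458 against 97.8, 126 and 61, groups that do not overlap (-0.99 ± 0.34 and adjusted p = 0.104 in the fit without filter). All 3 of its myotube signals and 1 of its myoblast signals were at or below background.

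BIRC5 encodes survivin, the subunit that brings the complex to the centromere, and its probe sets did not agree. The brightest gave 2982, 2449 and 2425 in myoblasts and 2336, 2362 and 1278 in myotubes, a log2 change of -0.40 ± 0.25 that was not called (adjusted p = 0.291). A second, alike in myoblasts, gave 3007, 2619 and 2154 against 424, 162 and 146, with a log2 change of -2.71 ± 0.34 (adjusted p = 0.00141 over all probe sets), at least 3.5-fold lower. The third gave -1.09 ± 0.39 (adjusted p = 0.0951), with all 3 myotube signals and 1 myoblast signal at or below background. The brightest is of the _x_at kind. With the mean of the 3 probe sets in place of the brightest, BIRC5 was called (adjusted p = 0.0101).

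Separase and its inhibitor gave 1 call of 2. PTTG1, which encodes securin, the inhibitor destroyed at the start of anaphase, gave 12244, 8353 and 7991 in myoblasts and 4819, 4187 and 3470 in myotubes. The groups did not overlap and all signals were far above background. The log2 change was -1.14 ± 0.21, or 2.21-fold lower (adjusted p = 0.00757), and the gene was called under all 20 alternatives (adjusted p from 0.00121 to 0.0433). Its probe set is also of the _x_at kind. If the RNA was human, the near-identical copies PTTG2 and PTTG3P could contribute to its signal. ESPL1, separase itself, the protease that cuts cohesin, gave 1181, 1072 and 1380 against 1261, 1484 and 438 from its brightest probe set (-0.27 ± 0.38, adjusted p = 0.63). Only myotube array 3 was low there, with its signal below background, and without that array the change was 0.16. The second probe set of ESPL1 gave 1430, 890 and 766 against 366, 410 and 225, without overlap, and a log2 change of -1.19 ± 0.37 that also was not called (adjusted p = 0.0651). Every myotube signal of that set was at or below background, so the size of a fall is uncertain.

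**Figure D3:**
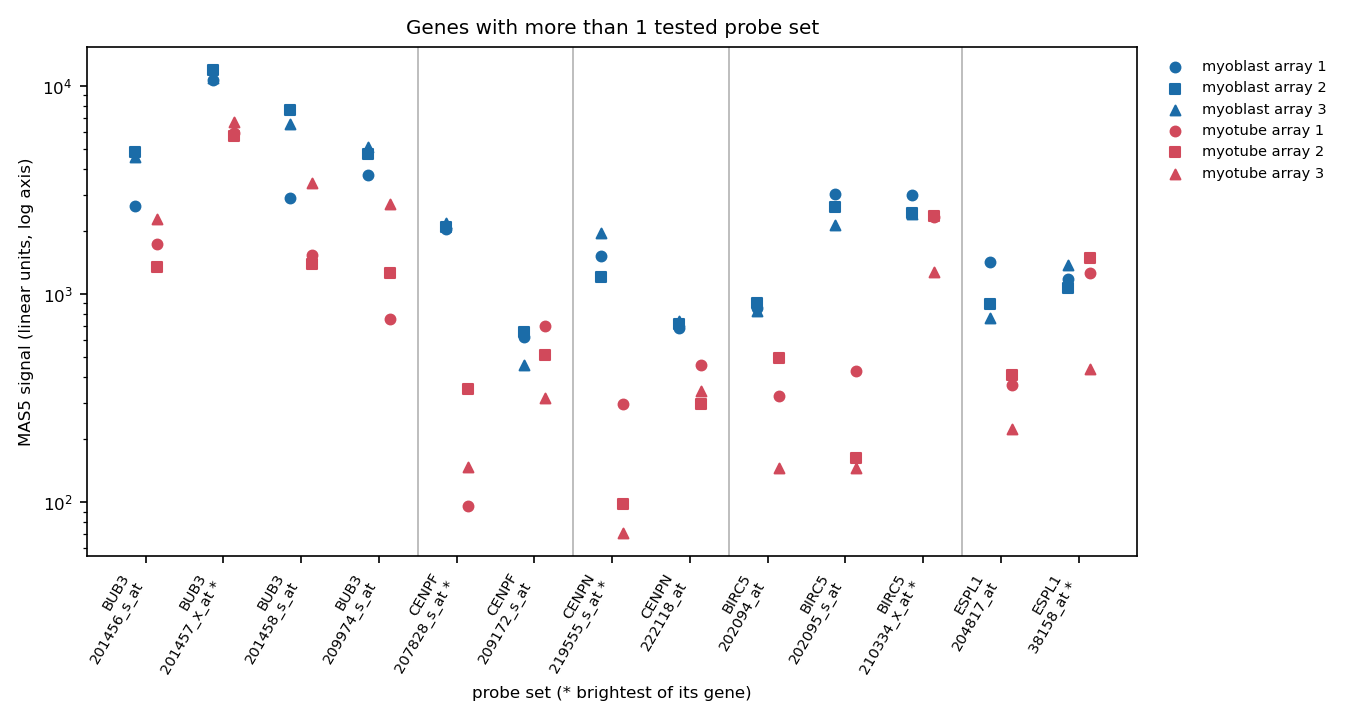
MAS5 signal (linear units, log axis) of every tested probe set of the 5 genes that have more than 1, on each of the 6 arrays, with the brightest of each gene starred. The stages are apart in 3 of the 4 BUB3 probe sets, apart in the starred CENPF probe set and mixed in the other, and for BIRC5 far apart in the middle probe set but close in the starred one.

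The 34 genes had 48 probe sets, of which 33 were tested and 18 were called lower, where 6.41% of the 13315 probe sets tested were. For 5 genes more than 1 probe set was tested. All 4 probe sets of BUB3 pointed down, with log2 changes of -1.06, -0.85, -1.35 and -1.54 and adjusted p of 0.0326, 0.0113, 0.05 and 0.0214, so that 3 passed. CENPF gave -2.60 in the brightest and -0.16 ± 0.38 in the other (adjusted p = 0.79, signals of 620, 656 and 455 against 698, 511 and 315). CENPN gave -2.35 in the brightest and -0.71 ± 0.36 in the other (adjusted p = 0.204; 687, 717 and 741 against 456, 297 and 340, without overlap). In the dimmer set of CENPF and in that of CENPN, all 3 myotube signals and 1 myoblast signal were at or below background. These sets therefore cannot give the size of a fall. Which probes of these sets match the hybridised transcripts was not tested.

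The number of calls changed with the way the myoblast arrays were set against the myotube arrays. With the code series as a block, 8 of the 25 genes were called lower, where 1.36% of all genes tested were: BUB1, BUB1B, CENPF, ZWINT, AURKB, CDCA8, PTTG1 and HJURP. The other 7 called genes kept their direction and lost the call, and of the 15 the fall was larger with the block in 5 and smaller in 10. For CENPN the change was -2.35 without and -2.34 with the block, while its SE was 0.39 and 0.53. For MAD2L1 the change was -2.73 and -1.83, with an SE of 0.43 in both. Whether lost calls came from the arrays compared or from lower precision was not tested. Myoblast array 1 gave the lowest of the 3 myoblast signals in 13 of the 25 tested genes and the highest in 5, against 3330 and 4123 of the 8149 genes tested. The median log2 difference between myoblast arrays 2 and 3 was 0.06 over the 25 genes and 0.12 over all genes tested, and that between array 1 and their mean 0.30 and 0.45. With myoblast arrays 2 and 3 averaged as 1 sample, 12 of the 25 genes were called lower. In that fit 416 of the 8149 genes tested were called, lower and higher together. Among the myotube arrays, array 2 gave the highest signal in 12 of the 25 genes, array 1 in 7 and array 3 in 6. The same count over all genes tested was not made. Myotube array 2 also had the highest median signal over all probe sets, 789.2 against 747 on array 1 and 641 on array 3. Whether the count of 12 goes beyond such a difference between whole arrays was not tested.

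The other genes of the pathway were taken from a list of 51 chosen by function, with further kinetochore subunits, APC/C subunits and their partners. Of these, 33 were on the array and 30 were tested. Limma called 10 lower, where 7.12% of all genes tested were, and none higher, with a median log2 change of -0.71. At an unadjusted p under 0.05 none was higher and 17 were lower, against 16.7% and 15.5% of all genes tested. With the code series as a block 6 were called lower, against 1.36%. CDC20, the APC/C activator that the checkpoint inhibits, gave 4677, 3323 and 3693 in myoblasts and 92.5, 435 and 79.8 in myotubes. The myotube signals were at background, and the log2 change of -3.45 ± 0.36 (adjusted p = 0.000475), was at least 5.25-fold lower. The mitotic kinase CDK1 and its B-type cyclins, which the APC/C marks for destruction, were also lower. CDK1, with every myotube signal at or below background, had a log2 change of -2.67 ± 0.29 (adjusted p = 0.00065), at least 3.44-fold lower. CCNB2, with 2 of 3 myotube signals there, and CCNB1, with 1, had log2 changes of -2.41 ± 0.34 (adjusted p = 0.00239) and -2.29 ± 0.22 (adjusted p = 0.000337).

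**Figure D4:**
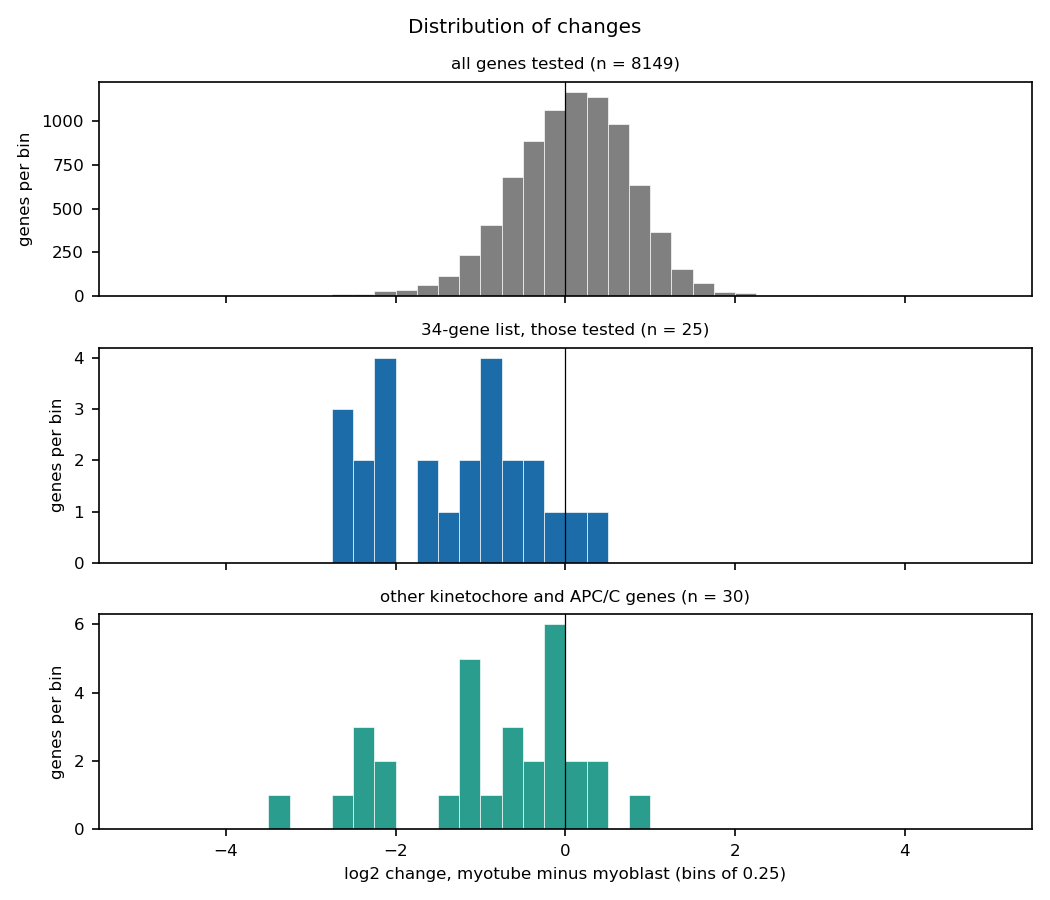
Number of genes per bin of 0.25 in log2 change (myotube minus myoblast) among all 8149 genes tested (top), the 25 tested kinetochore, centromere and checkpoint genes (middle) and the 30 tested other kinetochore and APC/C genes (bottom). The middle distribution lies almost wholly below 0, with its median at -1.14, the bottom one has its median at -0.71, and all genes centre at 0.12.

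Both ubiquitin-conjugating enzymes of the APC/C were lower, UBE2S with a log2 change of -2.02 ± 0.20 (adjusted p = 0.000359) and UBE2C of -1.13 ± 0.21 (adjusted p = 0.00855). None of the 8 APC/C subunits on the array was called, with log2 changes from -0.75 (CDC23) to 0.40 (CDC16), a count near the 7.12% of all genes called lower. At an unadjusted p under 0.05, 3 subunits were lower and none higher, against 15.5% and 16.7% of all genes tested. Whether the subunits differed from the enzymes was not tested. SPDL1, the dynein adaptor Spindly, had a log2 change of -2.36 ± 0.49 (adjusted p = 0.0133) and ZWILCH, of the ROD and ZW10 complex, of -2.07 ± 0.45 (adjusted p = 0.0159), at least 2.48-fold lower. All 3 myotube signals of ZWILCH and 2 of SPDL1 were at or below background, as was 1 of CENPX. CENPX, a histone-fold subunit of the inner kinetochore, was lower by a log2 change of -1.41 ± 0.38 (adjusted p = 0.0347) and TRIP13, the ATPase that remodels Mad2, by -1.17 ± 0.23 (adjusted p = 0.0112). Each of these 4 calls was lost without some single array, with adjusted p up to 0.0688 for SPDL1 (without myoblast 2, myotube 1 or myotube 2), 0.0579 for ZWILCH (myoblast 2, myoblast 3 or myotube 1), 0.113 for CENPX (myoblast 2 or 3, myotube 2 or 3) and 0.0786 for TRIP13 (myoblast 2 or 3).

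Markers of the stages and of other cells moved with the same contrast. Of 9 myotube markers 7 were tested and all 7 were higher in myotubes, with a summed signal of 2467 to 8465 on the myoblast and 33904 to 40908 on the myotube arrays. The other 2, CKM and MYOG, were below the filter, as were MYOD1 and MYF5 of the 4 muscle lineage markers, of which neither tested gene was called (summed signal 1238 to 4003 and 2710 to 4451). Of 6 proliferation markers 5 were lower, with sums of 26200 to 32731 and 6138 to 9309, and MKI67 was not called (log2 change -0.38 ± 0.23, adjusted p = 0.273). CCNB1 was among these 5 and also among the other pathway genes called lower, so the lists are not separate. With the code series as a block 2 of the 6 were called, and 3 without myoblast array 2, myoblast array 3 or myotube array 1, when TOP2A and CCNA2 were not (adjusted p up to 0.0996 and 0.0774 without single arrays). Of 8 fibroblast markers 6 were higher in myotubes, with sums of 30557 to 36701 and 131059 to 135305, and no marker was listed at 0. Myoblast array 1 gave the highest myoblast sum of the myotube, muscle lineage and fibroblast markers (8465, 4003 and 36701). It also gave the lowest myoblast sum of the proliferation markers (26200). The part of these differences in the results above was not tested.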

How the data were processed

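Total RNA from 3 myoblast and 3 myotube samples had been hybridised to 6 HG-U133A arrays. The deposited values are an intensity, 1 linear signal per probe set; the submitters' processing notes name MAS5 as the tool by which the authors made them, and its version is not given in the sources read here. The array run records gave chip lot, scan day and laboratory code. Groups came from the labels. Arrays have no read depth, and their number limits the precision.

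Of 22283 probe sets, 68 controls were left out; annotation of 2016 gave 19065 of the rest 1 symbol, 1043 several and 2107 none, and 29 sex-linked ones were left out. Signals were taken as log2(signal + 197), 197 being the 25th percentile of the table. Probe sets with a mean under the 40th percentile (474.1) were left out, and each gene was read from its brightest probe set. Groups were compared with limma 3.58.1 in R 4.3.3 (lmFit, eBayes with trend, two-sided, Benjamini-Hochberg over all genes tested, threshold 0.05); ± after a log2 change is its SE. The fit was tested on simulated data. Promoters were matched by symbol to RefSeq's mouse table. Every one of the 34 genes is named, and of the other pathway genes those called, at most 10. The genes, lists and tests were chosen with earlier results of these data known. Alternatives were the offset, filter, scaling, variance model, blocks, the probe set rule and leaving out each array. Figures were drawn with matplotlib 3.10.9.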

Additional observations from a re-analysis of the deposited data

How the results depend on the processing

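All 15 called genes stayed lower in myotubes under every alternative that could give them a value, and none of the 34 was called higher under any. The count of 15 called lower stayed within 1.5 times under all alternatives except the code series as a block (8) and the first code series alone (2), where 1 myoblast array faces 3 myotube arrays; it was 10 with the filter at the 60th percentile and 11 to 15 without single arrays. The replicate numbers did not pair the arrays (correlations of deviations 0.198, -0.152 and 0.306), and the replicate block gave 15 genes. For all genes, 1060 were called, against 1626 with the replicate block, 322 with the chip lot as a random block, 259 with the code series block, 130 in the first series alone and 416 with myoblast arrays 2 and 3 averaged. Leaving out single arrays gave 408 to 2349 calls, the highest without myoblast array 1 and the lowest without myoblast array 2. The filter at the 60th percentile gave 1037 calls among 5708 genes tested. These counts over all genes take lower and higher calls together. The 10 other pathway genes became 6 with the chip lot block, 6 with the code series block, 4 in the first series alone, 6 with arrays 2 and 3 averaged, and 6 to 13 without single arrays. The 18 probe sets called became 11, 8 and 2 under the chip lot block, the code series block and the first series alone, and 11 to 19 without single arrays. Fewer arrays or residual degrees of freedom enter the series and averaged fits; other causes were not tested. Of the changes of single genes, 440 stayed on their side of the threshold, 42 lost and 1 gained a call, and 8 turned sign, all uncalled: CENPB to -0.01, -0.02 and -0.06 without myoblast 1, myotube 1 and myotube 2, ESPL1 to 0.16 without myotube 3, and MIS18A to 0.35 with the code series block and in the first series alone, 0.04 without myoblast 2 and 0.02 without myotube 3. Without single arrays CENPB ranged from -0.06 to 0.45, ESPL1 from -0.54 to 0.16 and MIS18A from -0.36 to 0.04. Myotube signals at or below background limit the size of 12 of the 15 called falls: all 3 signals in 9 genes, and 1 or 2 of the 3 in CENPA, AURKB and CENPU.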
